A study of Homo sapiens with 2 samples.

Results

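The S100 genes encode small calcium-binding proteins, and 10 of them were followed here, namely S100A2, S100A3, S100A4, S100A6, S100A10, S100A11, S100A13, S100A14, S100A16 and S100P. Every probe set that the platform annotation assigns to exactly one of these symbols was taken, which gave 13 probe sets among the 54675 on the array. The 10 genes stand among 19775 genes that had at least 1 probe set with a single symbol. The samples were HCT116, a human cell line established from a colorectal carcinoma, taken 2 days after transfection. The first group received siRNAs against JMJD1A (KDM3A) and JMJD1B (KDM3B), which are demethylases of lysine 9 on histone H3, and the second received a control siRNA. Each group held 1 array, so no value below has a replicate error and no difference has a test. The siRNA sequences are not given in the sources used here. A ratio describes these 2 samples and hybridizations only. In RNA from a whole culture, fewer cells that express a gene and less RNA per cell cannot be told apart.

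An S100 protein carries a pair of EF-hands, helix-loop-helix folds that hold calcium, and usually works as a dimer. Calcium opens a hydrophobic face on most members, which then bind target proteins such as annexins, cytoskeletal motors or membrane receptors. S100A10 is the exception that has lost calcium binding and stays in the open form. Most family members lie together in 1 cluster on chromosome 1, and S100P lies alone on chromosome 4. In intestinal epithelium and colorectal tumours the family is known for S100A4, which has long been linked to metastasis, and for S100P, S100A6, S100A10 and S100A11, which are frequently described in carcinoma cells.

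S100A2 and S100A3 were about 4-fold lower with the JMJD1A/JMJD1B siRNAs, S100A13 was 2.37-fold higher, and the other measured members were under 2-fold. S100A2 and S100A3 are neighbours on the chromosome, next to S100A4, which was 1.73-fold higher. The 250 bases before the annotated start of these genes, of S100A6 and of S100A13 are shown because these are the members past 2-fold and 2 members of the same stretch of the chromosome, S100A4 and S100A6, that were under 2-fold higher. They are RefSeq sequence of GRCh38.p14, read in the direction of transcription from the most upstream annotated start. Capitals mark TGANTCA and TATAAA, the letters of a TATA box. TGANTCA, in which N is any base, includes the letters bound by AP-1 factors. The share of windows with TGANTCA below counts every base at N, so it is not that of AP-1 letters alone.
S100A2, chr1:153565845-153566094, minus strand: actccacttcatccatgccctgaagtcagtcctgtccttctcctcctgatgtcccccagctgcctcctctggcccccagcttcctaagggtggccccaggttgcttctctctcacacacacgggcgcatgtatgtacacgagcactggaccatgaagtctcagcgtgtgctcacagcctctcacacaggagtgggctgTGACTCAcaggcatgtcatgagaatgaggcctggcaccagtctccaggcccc
S100A3, chr1:153549259-153549508, minus strand: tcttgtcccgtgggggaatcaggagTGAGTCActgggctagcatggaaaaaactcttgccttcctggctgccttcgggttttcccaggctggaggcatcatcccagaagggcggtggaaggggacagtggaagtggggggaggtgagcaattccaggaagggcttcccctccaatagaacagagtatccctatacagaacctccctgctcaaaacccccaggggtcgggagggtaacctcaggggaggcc
S100A4, chr1:153545807-153546056, minus strand: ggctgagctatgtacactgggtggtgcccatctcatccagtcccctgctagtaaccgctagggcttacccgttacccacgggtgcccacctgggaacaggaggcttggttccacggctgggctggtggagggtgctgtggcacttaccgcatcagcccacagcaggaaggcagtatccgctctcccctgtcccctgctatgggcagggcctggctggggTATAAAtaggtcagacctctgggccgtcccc
S100A6, chr1:153535992-153536241, minus strand: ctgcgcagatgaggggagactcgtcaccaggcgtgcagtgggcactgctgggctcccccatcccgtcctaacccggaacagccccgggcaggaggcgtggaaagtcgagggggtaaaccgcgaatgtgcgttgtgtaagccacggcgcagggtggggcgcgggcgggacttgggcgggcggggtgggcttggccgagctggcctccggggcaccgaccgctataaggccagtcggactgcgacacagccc
S100A13, chr1:153634362-153634611, minus strand: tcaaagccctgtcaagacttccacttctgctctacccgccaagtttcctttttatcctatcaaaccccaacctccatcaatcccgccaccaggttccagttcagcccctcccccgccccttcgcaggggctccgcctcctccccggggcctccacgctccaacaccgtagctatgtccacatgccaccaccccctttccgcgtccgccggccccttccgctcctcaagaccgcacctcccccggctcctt

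TGANTCA was present in the windows of S100A2 and S100A3 and in none of the other 8 members, with a search of both strands, while 6.57% of 27305 promoter windows of this length held it. The match began 52 bases before the start in S100A2 and 225 bases before it in S100A3. Outside the 10 genes, the window of S100A5, whose log2 ratio was -1.22, held no match. That of S100A12, which was not measured, held 1, beginning 57 bases before the start. TATAAA was found in S100A4, 31 bases before the start, and in S100P, 28 bases before it, against 11.2% of all windows. CG dinucleotides numbered 4 in S100A2, 4 in S100A3, 7 in S100A4, 4 in S100A14, 1 in S100A16 and 4 in S100P, against 24 in S100A6, 24 in S100A10, 15 in S100A11 and 15 in S100A13, with a median of 10 over all windows, so both the lower genes and members that were not lower had few. GCGTG and ACGTG, the core letters bound by hypoxia-inducible factors, were sought too. GCGTG was present in 5 of the 10 members, S100A2, S100A6, S100A10, S100A11 and S100A13 (31.9% of all windows), and ACGTG in none (18.6%). GGGCGG, the GC box, was present in S100A3, S100A6, S100A10, S100A11 and S100A13 (42.2% of all windows). These letters were picked after the sequences and ratios had been seen, and a match describes the window, not a site in use.

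The knockdown and the cell identity were read from the same arrays. KDM3B read 496 on the JMJD1A/JMJD1B siRNA array and 3031 on the control array, while KDM3A read 3323 on the JMJD1A/JMJD1B siRNA array and 3884 on the control array, 85.6% of the control signal. Of 10 colorectal epithelial markers 8 were above the signal filter, among them EPCAM and the keratins KRT8, KRT18 and KRT19, with KRT20, CDX2 and VIL1 dim. Their summed signal was 121776 on the JMJD1A/JMJD1B siRNA array and 79131 on the control array. Fibroblast markers above the filter were 2 of 7 (summed signal 698 on the JMJD1A/JMJD1B siRNA array and 363 on the control array), leukocyte markers 3 of 8 (388 on the JMJD1A/JMJD1B siRNA array and 475 on the control array) and endothelial markers 1 of 4 (158 on the JMJD1A/JMJD1B siRNA array and 116 on the control array). No signal in the table was 0. The part of such markers in the S100 values was not tested.

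The values are MAS5 signals on a linear scale, and all ratios are log2 of the JMJD1A/JMJD1B siRNA signal over the control signal. A probe set counted as measured if its mean log2 signal over both arrays was at or above 50.4, the median signal of the probe sets that are no controls. A gene was read from its measured probe set of highest mean signal. Of the 13 S100 probe sets 12 were measured, and of the 10 genes 9, the exception being S100P. Probe sets of one gene scattered with an SD of 0.54 on the log2 scale over 6192 genes with at least 2 of them. This SD holds no spread between samples.

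S100A2, an EF-hand protein of basal epithelia that has been described as reduced in several carcinomas, read 809 on the JMJD1A/JMJD1B siRNA array and 3148 on the control array. This was a 3.89-fold lower signal and a log2 ratio of -1.96. S100A3, a cysteine-rich member known from hair cuticle, read 71.3 on the JMJD1A/JMJD1B siRNA array and 303 on the control array, 4.25-fold lower, with a log2 ratio of -2.09. Each gene has 1 probe set, so neither value has a second reading within the arrays. With the JMJD1A/JMJD1B siRNAs the S100A3 signal was just above the filter. Only 0.947% of all measured genes had a ratio below that of S100A2, and 0.740% had one below that of S100A3. Both differences were more than 3 times the SD between probe sets of one gene.

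S100A13, which takes part in the non-classical release of fibroblast growth factor 1 and interleukin 1 alpha, read 8487 on the JMJD1A/JMJD1B siRNA array and 3580 on the control array. The log2 ratio was 1.25, and 95.1% of measured genes had a lower one. Its second probe set was far dimmer, at 126 on the JMJD1A/JMJD1B siRNA array and 94.8 on the control array, a log2 ratio of 0.41. The probe sets thus shared a direction and differed in size, and their mean of 0.83 fell short of 2-fold.

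S100A10, also called p11, binds annexin A2 at the plasma membrane and helps to activate plasminogen there. Its bright probe set read 19414 on the JMJD1A/JMJD1B siRNA array and 9996 on the control array, 1.94-fold higher with a log2 ratio of 0.96, just inside the 2-fold line. The dim probe set read 85.4 on the JMJD1A/JMJD1B siRNA array and 32.8 on the control array, a log2 ratio of 1.38. Since its control signal was under the filter, it was at least 1.69-fold higher when that signal was raised to 50.4. The mean of both log2 ratios was 1.17, and 0.86 with that control signal raised to the filter, so a call past 2-fold by the mean rests on the dim signal.

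S100A4, which binds non-muscle myosin IIA and affects cell motility, read 35220 on the JMJD1A/JMJD1B siRNA array and 20356 on the control array, a log2 ratio of 0.79. S100A6, or calcyclin, read 50564 on the JMJD1A/JMJD1B siRNA array and 31029 on the control array by its bright probe set, a log2 ratio of 0.70. Its dim probe set read 96.5 on the JMJD1A/JMJD1B siRNA array and 101 on the control array, so it did not share that direction (log2 ratio -0.07). The S100A4 probe set is of the kind (_s_at) whose probes can match more than 1 transcript.

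S100A11, which binds annexin A1, read 4799 on the JMJD1A/JMJD1B siRNA array and 2858 on the control array, a log2 ratio of 0.75. S100A16, a widely expressed member, read 15065 on the JMJD1A/JMJD1B siRNA array and 9838 on the control array, a log2 ratio of 0.61. S100A14, an epithelial member with an incomplete calcium site, was nearly level at 6885 on the JMJD1A/JMJD1B siRNA array and 6663 on the control array, a log2 ratio of 0.05. S100P, which binds the membrane linker ezrin, read 29.0 on the JMJD1A/JMJD1B siRNA array and 34.3 on the control array. Both S100P signals were under the filter, so no fold is given for it. S100A4, S100A6, S100A11 and S100A16 thus stood between 1.53-fold and 1.73-fold higher, under 2-fold. Counted from 0, each log2 ratio exceeded the scatter SD of 0.54, which leaves out any shift that probe sets share. Against 0.29, the median of the top 10% of genes by mean signal, 5 members lay within that SD. These were S100A4, S100A6, S100A11, S100A14 and S100A16. S100A11 is itself not in that top 10%. The median of the 10% bin of signal that holds it was 0.07, and its ratio lay more than that SD above this.

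**Figure D1:**
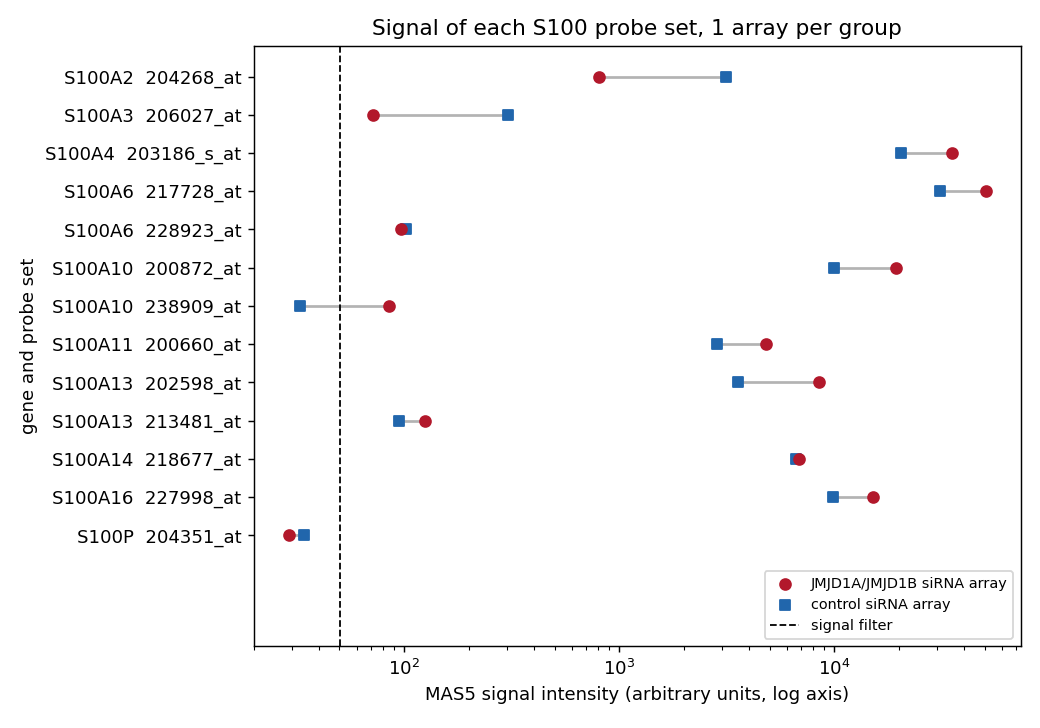
MAS5 signal (arbitrary units, log axis) of the 13 S100 probe sets on the JMJD1A/JMJD1B siRNA array (red circles) and the control siRNA array (blue squares), with the signal filter of 50.4 as a dashed line. S100A2 and S100A3 lie to the left of their control values by about 4-fold, S100A13 lies to the right by 2.37-fold for its bright probe set, and S100P is under the filter on both arrays.

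As a group, 1 of the 9 measured genes was at least 2-fold higher, against 8.91% of all 12561 measured genes, and 2 were at least 2-fold lower, against 8.53%. By probe set, 2 of 12 were at least 2-fold higher (8.89% of all measured probe sets) and 2 at least 2-fold lower (10.4%), but 1 of the higher ones is the dim S100A10 probe set, which does not reach 2-fold by its bound. The higher count is near the background share, and the lower count rests on S100A2 and S100A3 alone. The ratio was above 0 in 7 of the 9, against 52.1% of all measured genes, and the median was 0.70, against 0.04 for all measured genes. At 1.5-fold, 6 of the 9 were higher (S100A4, S100A6, S100A10, S100A11, S100A13 and S100A16; background 21.7%) and 2 were lower (background 19.5%). At 3-fold none was higher (2.28%) and S100A2 and S100A3 were lower (2.26%).

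The members' modest positive ratios lay at high signal, where the arrays as a whole leaned the same way. Of the 9 genes 6, all but S100A2, S100A3 and S100A11, fell in the top 10% of genes by mean signal. The median log2 ratio of the 1257 genes in that top 10% was 0.29, a ratio above 0 was seen in 69.6% of them, and 29.8% stood 1.5-fold higher or more. Within it 78.3% of genes had a lower ratio than S100A6, 71.9% a lower one than S100A16, 84.2% a lower one than S100A4, 90.3% a lower one than S100A10, 95.7% a lower one than S100A13 and 33.1% a lower one than S100A14. A fall of 2-fold was scarcer at high signal, at 2.70% of those genes. The top 10% was chosen as a comparison after the values had been seen.

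**Figure D2:**
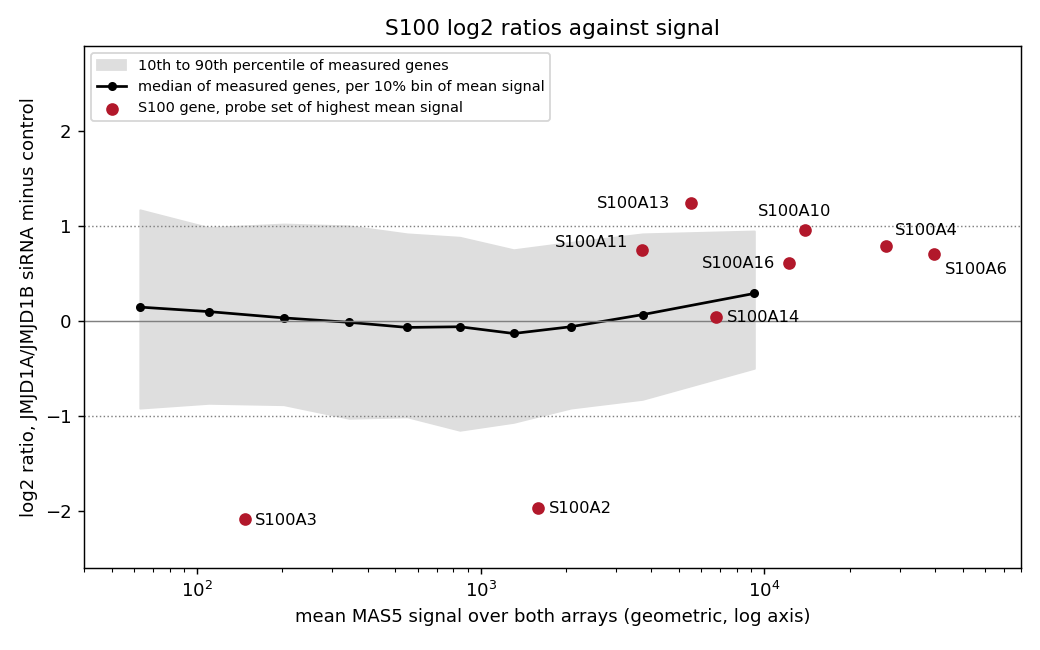
Log2 ratio (JMJD1A/JMJD1B siRNA minus control) of the 9 measured S100 genes, each by its probe set of highest mean signal (red), against mean signal over both arrays (log axis). The black line and grey band give the median and the 10th to 90th percentile of measured genes in each 10% bin of signal. S100A2 at -1.96 and S100A3 at -2.09 lie far below the band. Of the other members, all but S100A11 have a mean signal in the top 10% of genes, where the median is 0.29.

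The size of the positive ratios depended on how the arrays were set level. After loess, which removes the trend with signal, S100A4 stood at 0.39, S100A6 at 0.23, S100A16 at 0.36 and S100A14 at -0.11, while S100A10 stood at 0.67, S100A11 at 0.70 and S100A13 at 1.13. At 1.5-fold this left 3 of 9 higher, S100A10, S100A11 and S100A13 (background 21%), with S100A2 and S100A3 lower as before (background 19%). The 18 hybridization control probe sets, which report transcripts added in equal amounts in the array maker's procedure, had a median log2 ratio of 0.61. With the arrays level on these controls every ratio drops by that amount, the median of all measured genes moves by as much, and 7.19% in place of 51.1% of the genes changed 2-fold would be higher. On that scale S100A16 would be at 0.0041, S100A6 at 0.094, S100A11 at 0.14, S100A4 at 0.18, S100A10 at 0.35 and S100A13 at 0.63, and S100A14 would turn to -0.56. S100A2 and S100A3 were at least 2-fold lower under every scaling run, between -1.90 and -2.57 for S100A2 and between -2.08 and -2.70 for S100A3. A pseudocount of 32, added to each signal before log2, is no scaling. It left S100A3, whose lower signal is near the filter, at -1.70, and S100A2 at -1.92.

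**Figure D3:**
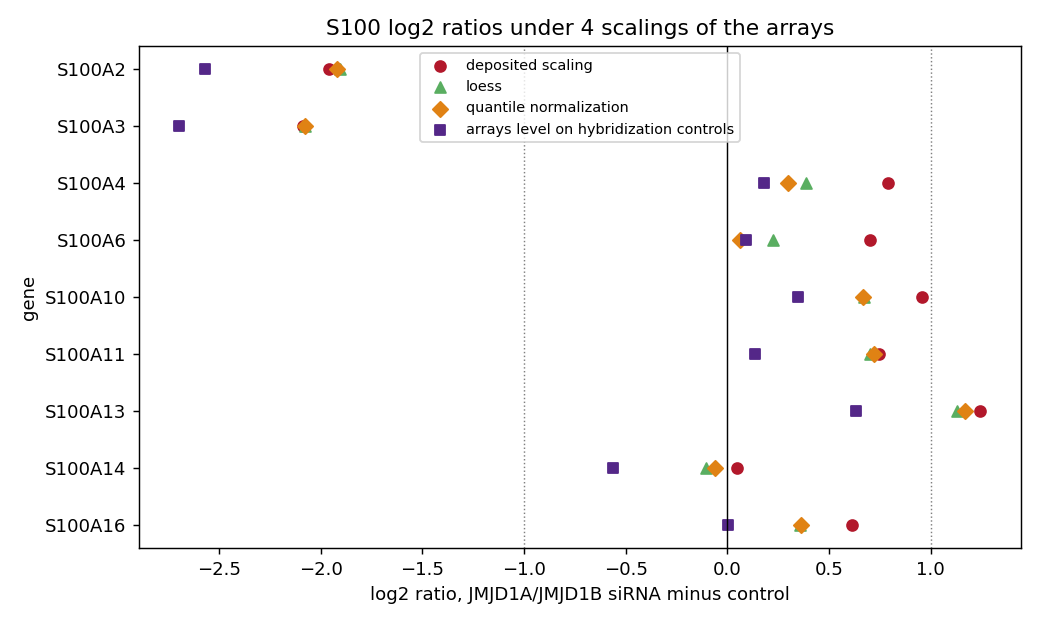
Log2 ratio (JMJD1A/JMJD1B siRNA minus control) of the 9 measured S100 genes with the deposited scaling (circles), after loess (triangles), after quantile normalization (diamonds) and with the arrays level on the hybridization controls (squares), with 2-fold differences as dotted lines. S100A2 and S100A3 stay beyond 2-fold lower with all 4, whereas S100A13 is past 2-fold higher with 3 of them and S100A14 changes side of 0.

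Along chromosome 1 the S100 genes did not go one way. Between S100A6 and S100A13 lie 8 protein-coding genes in a row, all of the S100 family and all measured. In chromosome order they are S100A6 (log2 ratio 0.70), S100A5 (-1.22), S100A4 (0.79), S100A3 (-2.09), S100A2 (-1.96), S100A16 (0.61), S100A14 (0.05) and S100A13 (1.25). Of these 8 genes 3 were at least 2-fold lower, namely S100A5, S100A3 and S100A2 (background 8.53%), and 1 was at least 2-fold higher, S100A13 (8.91%). The stretch was picked with the values known, so its counts are no measure of a local excess. S100A10 (0.96) and S100A11 (0.75), also on chromosome 1 and measured, lie outside it. The 3 lower genes flank S100A4, which was 1.73-fold higher. S100A5, which is outside the 10 genes followed and is known from olfactory neurons of rodents, read 45.4 on the JMJD1A/JMJD1B siRNA array and 106 on the control array. The first of these signals was under the filter, so S100A5 was at least 2.10-fold lower against the filter. The annotated spans of S100A5 and S100A4 overlap, as do those of S100A13 and S100A1.

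The other 9 S100 genes with a probe set had none whose mean signal over both arrays reached the filter. On single arrays their 12 probe sets read between 0.545 and 57.8. They include S100A8, S100A9 and S100A12, which are abundant in neutrophils and monocytes, S100A7 and S100A7A of stratified epithelium, S100A1, S100B, S100G and S100Z. Among 77 protein-coding genes that lie between or beside the S100 genes on either chromosome, most of them skin barrier genes of the epidermal differentiation complex, 51 had a probe set and 29 were measured. Of these 1 passed 2-fold in the higher direction (background 8.91%) and 3 in the lower (8.53%), and their median was -0.20, against 0.04 for all measured genes. The higher one was SPRR4, a cornified envelope gene, at 373 on the JMJD1A/JMJD1B siRNA array and 89.4 on the control array (4.17-fold). The lower ones were TBC1D14 (3.01-fold) and MRFAP1L2 (2.23-fold), both near S100P, and INTS3 (2.32-fold), an Integrator subunit beyond S100A1. The lowest of the 29 ratios was -1.59, that of TBC1D14 on chromosome 4. Only 0.947% of all measured genes lay below S100A2 and 0.740% below S100A3, so these neighbours give no local contrast with them.

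**Figure D4:**
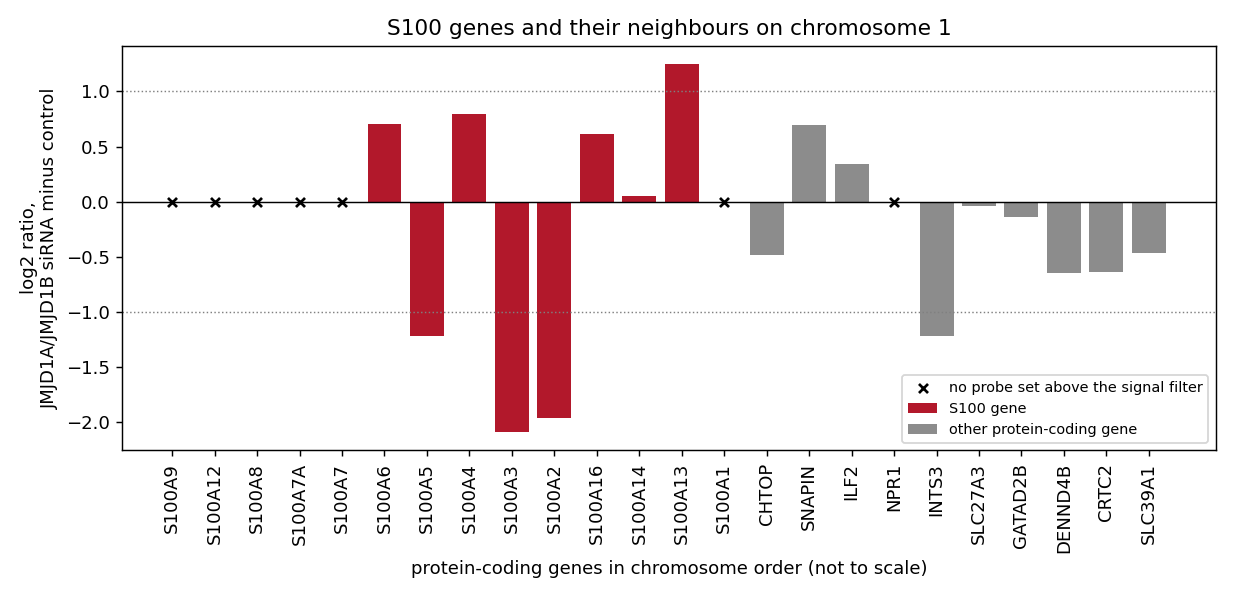
Log2 ratio (JMJD1A/JMJD1B siRNA minus control) of S100 genes (red) and of the protein-coding genes beyond them (grey) in chromosome order, not to scale, with 2-fold differences as dotted lines and a cross where no probe set passed the signal filter. S100A5 (-1.22), S100A3 (-2.09) and S100A2 (-1.96) point down beside S100A4 (0.79) and S100A6 (0.70), which point up.

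The listed binding partners of S100 proteins went both ways, with 18 of 22 measured. By the 2-fold line 0 were higher (background 8.91%) and 3 lower (8.53%), and the median was -0.20. With signals under the filter raised to it, 2 stayed past 2-fold lower, PLAT and PPFIBP1. PLAT, the tissue plasminogen activator, read 134 on the JMJD1A/JMJD1B siRNA array and 324 on the control array, 2.42-fold lower. PPFIBP1, or liprin beta 1, a partner of S100A4, was 2.09-fold lower where its signal was highest (1692 on the JMJD1A/JMJD1B siRNA array and 3538 on the control array), with its 5 measured probe sets between -1.89 and 1.02. FGF1, the growth factor that S100A13 helps to release, read 37.0 on the JMJD1A/JMJD1B siRNA array and 74.7 on the control array, at least 1.48-fold lower against the filter. SYT1, the synaptotagmin of the same release complex, was level at 2014 on the JMJD1A/JMJD1B siRNA array and 2025 on the control array. S100A13 transcript was thus higher where FGF1 transcript was lower and SYT1 transcript level.

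Other partners are named because of the member they bind, a choice made with their values known. For S100A10, ANXA2, which forms a tetramer with it, read 42968 on the JMJD1A/JMJD1B siRNA array and 24314 on the control array. This was a log2 ratio of 0.82 beside 0.96 for S100A10, and its 4 measured probe sets lay between 0.46 and 0.82. The lowest, a dim one, was the only one not of the _x_at kind. After loess ANXA2 stood at 0.38 and S100A10 at 0.67. With the arrays level on the hybridization controls ANXA2 stood at 0.21 and S100A10 at 0.35. AHNAK, a large scaffold that the complex binds, gave readings that disagree, with 1 measured probe set at -0.59 and the other at 2.32. For S100A6, its partner CACYBP was lower in all 4 measured probe sets (-1.53 to -0.53), as was the co-chaperone SUGT1 in all 5. Of those 5, 3 had both signals above the filter (-1.08 to -0.47), and the others were at least 9.34-fold and at least 2.89-fold lower against it. Both of these partners thus stood opposite in direction to the bright S100A6 probe set as deposited. That S100A6 ratio was nearly level under other scalings, at 0.061 after quantile normalization and 0.094 on the hybridization controls. For S100A4, MYH9, the myosin heavy chain it binds, was at -0.57. For S100A11, ANXA1 was at -0.04. For S100P, which was itself under the filter, EZR was at 0.22, IQGAP1 at 0.56 and S100PBP, which encodes an S100P-binding protein, at 0.58. With the arrays level on the hybridization controls these would turn to -0.39, -0.049 and -0.030. As deposited, the 5 measured EZR probe sets lay between -0.38 and 0.34. Those of IQGAP1 (0.22 to 0.57) and S100PBP (0.58 to 0.80) were all above 0.

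Annexins, the calcium-dependent membrane proteins that several S100 proteins bind, were measured for 10 of 12 genes. ANXA4 was 2.80-fold higher by its brightest probe set (6209 on the JMJD1A/JMJD1B siRNA array and 2217 on the control array), with the other at -0.02, and ANXA10 read 644 on the JMJD1A/JMJD1B siRNA array and 3325 on the control array, a 5.16-fold lower signal. These were 1 of 10 in each direction (background 8.91% higher and 8.53% lower). The remaining 8 were under 2-fold, and the median was 0.36 but -0.019 without _x_at and _s_at probe sets. EF-hand genes outside the S100 family had 4 of 21 measured members past 2-fold in the higher direction (background 8.91%) and 0 in the lower (8.53%), and a median of 0.24. The higher ones were CIB1, a calcium- and integrin-binding protein (12775 on the JMJD1A/JMJD1B siRNA array and 3037 on the control array, 4.21-fold), CALML4, a calmodulin-like gene (2.19-fold), CALU, a calcium-binding protein of the secretory pathway (2.18-fold), and GCA, or grancalcin (2.17-fold).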

How the data were processed

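Expression was measured on 2 single-channel oligonucleotide arrays, 1 per group, from biotin-labelled material made from 0.5 ug of total RNA, per the labels' protocols. The authors deposited 1 table of signal intensity values; MAS5 is the tool that the submitters' processing notes name, and its version and settings are not given in the sources used here. Each deposited intensity column had a trimmed mean (2% off both tails) of 500.1, so both share 1 overall scale. Both columns were mapped to a sample. Depth is set by the number of arrays.

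Gene symbols come from the platform annotation (41091 probe sets with 1 symbol, 1801 with several, 11721 with none). Signals were taken to log2 without a pseudocount. The S100 genes, the other lists and the promoter letters were chosen with earlier results of these data known. Named genes are all members, the measured other S100 genes, KDM3A and KDM3B, and up to 4 of each list with the largest change past 2-fold. Of the members past 2-fold, partners are named for S100A13 only, not for S100A2 or S100A3. Interleukin 1 alpha (IL1A) was not measured. Others are stated. Alternatives were 4 scalings, a pseudocount, 4 filters, 2 probe-set rules and 2 fold thresholds. Calculations, tested on simulated data, used Python 3.11.15, numpy 2.4.6, pandas 2.3.3 and statsmodels 0.14.6 (loess). Probe and protein sequences were not used here.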

Additional observations from a re-analysis of the deposited data

How the results depend on the processing

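No test could be lost or gained, since each group held 1 array, and leaving out an array would leave no comparison. No paired analysis was possible because each group held 1 array. The number of arrays, and for S100A3 and S100A5 a signal near the filter, limit what can be said. Of the S100 genes, S100A2 was at least 2-fold lower under all 11 alternatives that keep the 2-fold threshold, and S100A3 under the 10 that measured it, since a filter at the 75th percentile left it out and 1 gene lower in place of 2. S100A13 was at least 2-fold higher under 9 of 11. It was at 0.63 with the arrays level on the hybridization controls, which left 0 of 9 genes higher, and at 0.83 by the mean of probe sets, where S100A10 stood at 1.17 (0.86 with its dim control signal raised to the filter, a step added after seeing the data). At 1.5-fold 6 S100 genes were higher and at 3-fold 0. The S100 median was 0.094 on the scale of the hybridization controls, and 0.36 after loess and 0.30 after quantile normalization. S100A14 lay below 0 under 4 of 11 alternatives, the 4 scalings. The annexin median was 0.36 and turned to -0.019 without _x_at and _s_at probe sets. On the hybridization controls, the medians were -0.81 for binding partners, -0.25 for annexins, -0.37 for other EF-hand genes and -0.81 for chromosomal neighbours. At least 2-fold lower on that scale were 8 of 18 partners, 1 of 21 EF-hand genes and 12 of 29 neighbours (background 27.7%). At least 2-fold higher were 0 of 10 annexins and 1 of 21 EF-hand genes (background 2.15%). Those moves follow from subtracting 0.61 from each ratio.

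Other counts that moved by over 1.5 times were these. Binding partners had 1 of 21 genes higher with no filter and with a filter at the 25th percentile. They had 1 of 18 higher at 1.5-fold and 1 of 12 without _x_at and _s_at probe sets. Lower were 1 of 15 with a filter at the 75th percentile and 0 of 18 at 3-fold. EF-hand genes had 1 of 21 higher at 3-fold. They had 1 of 22 lower with no filter and with a filter at the 25th percentile. They had 1 of 21 lower at 1.5-fold and 1 of 19 without _x_at and _s_at probe sets. Annexins had 0 of 10 higher by the mean of probe sets (background 7.79%) and at 3-fold, and 3 of 10 higher at 1.5-fold. Neighbours had 4 of 51 higher with no filter, 4 of 44 with a filter at the 25th percentile and 4 of 29 at 1.5-fold. With a filter at the 75th percentile 0 of 17 were higher. Lower were 10 of 51 with no filter and 6 of 44 with a filter at the 25th percentile. At 1.5-fold 9 of 29 were lower and at 3-fold 1 of 29. The share of all measured genes moved too, to 16.1% higher and 12.7% lower with no filter and 13.2% and 10.5% at the 25th percentile. At the 75th percentile it was 7.57% and 8.71%, and without _x_at and _s_at probe sets 9.07% and 10.6%. At 1.5-fold it was 21.7% and 19.5%, and at 3-fold 2.28% and 2.26%. Fewer or more genes pass as the filter or threshold moves; beyond that the cause was not tested.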
